A study of Mus musculus with 12 samples.

Results

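Selective autophagy receptors are adaptor proteins that hold cargo with one surface and the ATG8 proteins of the growing autophagosome with another. The 5 receptor genes described here are Sqstm1, Nbr1, Optn, Calcoco1 and Tax1bp1. They were chosen by name, with the probe set of highest mean signal standing for each gene. Of the 5 members, 4 had a named probe set among the 22180 genes tested, 1 probe set each. No probe set was named Optn in the annotation used here, so Optn was not analysed here.

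The arrays measured RNA of mouse keratinocytes grown in KGM-2 medium and then sham treated or given 20 µM paraquat, with RNA taken 48 h later. Paraquat is a redox-cycling herbicide that makes superoxide in cells. Every mouse line carried the Atg7 f/f alleles: cells labelled wt were K14::Cre - and cells labelled KO were K14::Cre +, so the controls held the floxed gene too. Each genotype was measured with and without paraquat, and each of the 4 groups had 3 arrays, described as biological triplicates but not tied to single animals, so a p-value here measures the spread between these samples only. Keratin 14 is a basal keratinocyte keratin, and Cre driven by its promoter acts in these cells, while other cells that a culture may hold keep their Atg7. The animals' age and sex were not given in the sources used here.

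ATG7 is the E1-like enzyme that allows LC3 and GABARAP proteins to be joined to lipid, the form that the receptors bind on the autophagosome membrane. SQSTM1 (p62) and NBR1 collect ubiquitinated proteins, TAX1BP1 and OPTN take part in the clearance of aggregates, microbes and damaged mitochondria, and CALCOCO1 is a receptor for parts of the endoplasmic reticulum and the Golgi. SQSTM1 protein is itself degraded by autophagy and binds KEAP1, the inhibitor of the antioxidant transcription factor NRF2. The arrays measured RNA only, so protein levels and autophagic turnover were not measured.

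The labels were checked on the targeted gene. Atg7 signals in wt cells were 293, 356 and 286 without paraquat and 442, 442 and 457 with it. In KO cells they were 105, 111 and 103 without it and 129, 148 and 96 with it. All KO arrays lay below all wt arrays, and the means of the genotypes differed by -1.71 on the log2 scale (exact permutation test over 924 relabellings, 2-sided, p = 0.00216, the smallest it can give). Keratinocyte markers were high in every group, with 11 measured markers summing to 36642 to 44685 per array and Krt5 not named on the array. In a principal component analysis of the arrays, wt sham 2 lay at -31.4 on the second component against -11.4 and -20.4 for its group, and KO paraquat 3 lay at -19.7 on the third against -5.52 and -6.34. Some results that rest on either array are given with and without it, and the others with all 12 arrays only. Signal is the deposited RMA value on a linear scale, whose median was 42 to 45 on each array. A change is a difference of mean log2 signals from limma's fit to all 12 arrays, and it was called where the Benjamini-Hochberg adjusted p over all 22180 genes was under 0.05. In these bulk cultures, fewer cells of a type and less RNA per cell cannot be told apart.

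The sequences upstream of 3 of the genes are shown because Sqstm1 and Calcoco1 were the members that differed between the sham genotypes, and because Nbr1 starts 151 bases from the opposite-strand gene Brca1. They are 250 bases before the start of the gene on the minus strand for Sqstm1 and Calcoco1, and the whole interval between the 2 starts, on the plus strand, for Nbr1, all from RefSeq on GRCm38.p6 and written 5′ to 3′. Capitals mark matches on either strand to the GC box GGGCGG or to the CCAAT box CCAAT, both chosen after the sequences were read.
Sqstm1, chr11:50210821-50211070: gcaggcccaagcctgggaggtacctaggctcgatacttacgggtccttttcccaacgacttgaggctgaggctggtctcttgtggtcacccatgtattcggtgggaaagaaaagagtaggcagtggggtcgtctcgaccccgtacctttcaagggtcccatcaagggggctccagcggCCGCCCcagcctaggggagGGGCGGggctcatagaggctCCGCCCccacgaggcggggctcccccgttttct
Calcoco1, chr15:102722179-102722428: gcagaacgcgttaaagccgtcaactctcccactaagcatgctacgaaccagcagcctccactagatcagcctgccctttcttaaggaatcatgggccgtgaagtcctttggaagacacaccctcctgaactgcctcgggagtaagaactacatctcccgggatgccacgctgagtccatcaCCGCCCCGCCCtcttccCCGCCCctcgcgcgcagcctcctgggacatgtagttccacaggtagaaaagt
Brca1 to Nbr1, chr11:101551956-101552106: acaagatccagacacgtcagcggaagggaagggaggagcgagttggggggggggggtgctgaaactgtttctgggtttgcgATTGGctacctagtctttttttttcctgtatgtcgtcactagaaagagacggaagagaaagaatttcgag

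In the printed Sqstm1 sequence 3 GC boxes stand in the last part before the start. The Calcoco1 sequence also holds 3, of which a pair overlap. The interval before Nbr1 holds a CCAAT box read on the minus strand and no GC box. The window of another Nbr1 start, not printed here, holds 2 CCAAT boxes. Of the 7 windows of 250 bases that RefSeq lists for the 5 members, 3 held a GC box and 2, both of Nbr1, a CCAAT box. Among all 32851 such windows 32.7% and 33.8% did. The E-box CACGTG, the core of the element bound by TFEB, was in 0 of the 7 windows (6.02% of all), and the ATF4 element TGATGNAA was in 0 (3.45% of all). The antioxidant response element TGACNNNGC was in 1, that of the second Tax1bp1 start (10.2% of all). A match is a description of these letters only, and bases outside these windows were not searched.

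Sqstm1 was highest in sham-treated wt cells and lower in each of the other 3 groups. Its signals were 1818, 2751 and 2006 in wt sham (mean 2192 ± 493, SD, n = 3) and 1369, 1267 and 1339 in wt paraquat (1325 ± 52.4). They were 1059, 847 and 990 in KO sham (965 ± 108) and 1370, 1292 and 1120 in KO paraquat (1261 ± 128). The wt sham arrays lay above all 9 others, the KO sham arrays lay below all others, and the arrays of the 2 paraquat groups overlapped. The array wt sham 2 was the highest of the 12.

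In wt cells Sqstm1 fell 1.63-fold with paraquat (log2 change -0.70 ± 0.14, SE, limma adjusted p = 0.00160). In KO cells its log2 change was 0.39 with a 95% interval from 0.08 to 0.69, which did not pass (adjusted p = 0.0583), although the 3 treated arrays lay above the 3 sham arrays. That change was called under 6 of 12 other settings, among them the fit without wt sham 2 and KO paraquat 3 (0.47, adjusted p = 0.00765). The KO response exceeded the wt response by 1.09 ± 0.20 (95% interval 0.66 to 1.52, adjusted p = 0.0134), and 0.703% of all genes had a larger difference of responses. Without wt sham 2 the wt change was -0.53 (adjusted p = 0.00418) and the difference of responses 0.91 (adjusted p = 0.0138).

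Between the genotypes, Sqstm1 was 2.24-fold lower in KO than in wt cells under sham treatment (log2 change -1.17 ± 0.14, adjusted p = 2.67e-04), and 0.694% of all genes differed by more. Without wt sham 2 the difference was -0.99 (adjusted p = 5.53e-04). Under paraquat the KO minus wt difference was -0.08, with an interval from -0.38 to 0.23 (adjusted p = 0.897). The sham difference and the wt response share the wt sham arrays, so they are not independent of each other.

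Nbr1 showed another pattern: it rose with paraquat in both genotypes. Its signals were 689, 784 and 687 in wt sham (720.0 ± 55.4) and 1094, 1100 and 1085 in wt paraquat (1093 ± 7.55). In KO cells they were 728, 681 and 630 under sham treatment (679.7 ± 49.0) and 955, 1016 and 1010 under paraquat (994 ± 33.6). All 6 paraquat arrays lay above all 6 sham arrays, and the genotypes overlapped under sham treatment. Nbr1 rose 1.52-fold in wt cells (0.60 ± 0.08, adjusted p = 7.53e-05) and 1.46-fold in KO cells (0.55 ± 0.08, adjusted p = 2.11e-04). The responses differed by -0.06, with an interval from -0.31 to 0.20 (adjusted p = 0.876). The KO minus wt difference was -0.08 under sham treatment (-0.26 to 0.10, adjusted p = 0.626). Under paraquat it was -0.14 (-0.32 to 0.04, adjusted p = 0.591), where the 3 KO arrays lay below the 3 wt arrays without passing the test.

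Calcoco1 was lowest in sham-treated KO cells. Its signals were 455, 601 and 469 in wt sham (508 ± 80.6) and 546, 557 and 494 in wt paraquat (532 ± 33.7). They were 344, 293 and 323 in KO sham (320.0 ± 25.6) and 460, 496 and 516 in KO paraquat (491 ± 28.4). The KO sham arrays lay below all 9 others, and the other 3 groups overlapped one another. Calcoco1 was 1.58-fold lower in KO than in wt cells under sham treatment (-0.66 ± 0.11, adjusted p = 0.00221), and without wt sham 2 the difference was -0.53 (adjusted p = 0.00663). It rose 1.53-fold with paraquat in KO cells (0.62 ± 0.11, adjusted p = 8.40e-04). In wt cells its log2 change was 0.08, with an interval from -0.16 to 0.31 (adjusted p = 0.686). The difference of the responses, 0.54 ± 0.16 (0.20 to 0.88), did not pass (adjusted p = 0.0979), except where dim genes were removed before the test (adjusted p = 0.0487). Without wt sham 2 this difference was 0.42 and did not pass either. Under paraquat the KO minus wt difference was -0.12 (-0.36 to 0.12, adjusted p = 0.774). The sham difference and the KO response share the KO sham arrays.

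Tax1bp1 passed no test. Its signals were 1854, 2031 and 1788 in wt sham (1891 ± 126) and 1887, 1815 and 1893 in wt paraquat (1865 ± 43.4). In KO cells they were 1809, 1838 and 1644 under sham treatment (1764 ± 105) and 1848, 2094 and 1929 under paraquat (1957 ± 125). The groups overlapped, except that the KO paraquat arrays lay above the KO sham arrays. The intervals of its log2 changes ran from -0.20 to 0.16 for paraquat in wt cells, from -0.03 to 0.33 for paraquat in KO cells, from -0.28 to 0.08 for KO against wt under sham treatment and from -0.11 to 0.25 under paraquat. The adjusted p-values were 0.914, 0.224, 0.542 and 0.835.

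**Figure D1:**
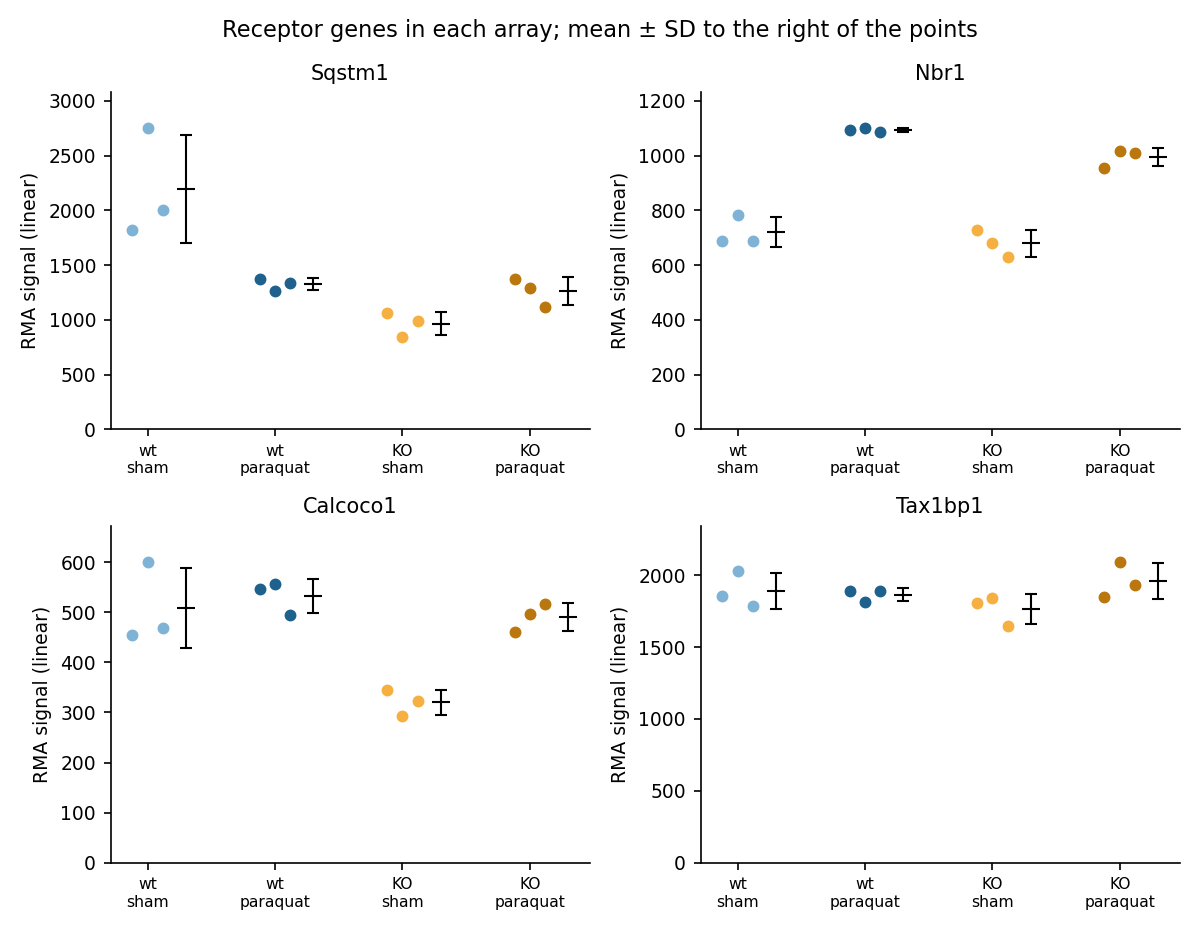
Signal of each receptor gene (linear RMA scale, axis from 0) in the 12 arrays, 3 points per group in the order of their replicate numbers, with the group mean and SD to the right of the points. Sqstm1 is highest in wt sham, at 1818 to 2751, Calcoco1 is lowest in KO sham, at 293 to 344, and Nbr1 is higher in both paraquat groups.

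The counts of members called are read against all genes. In wt cells 1 of 4 members rose with paraquat and 1 fell, where 29.2% of all genes were called, 14.9% higher and 14.3% lower. In KO cells 2 rose and 0 fell, where 27.1% of all genes were called, 14.5% higher and 12.6% lower. Under sham treatment 2 of 4 were lower in KO cells, where 10.2% of all genes were called, 4.58% higher and 5.67% lower. Under paraquat 0 of 4 differed between the genotypes by limma's test, also at an unadjusted p under 0.05, where 0.550% of all genes were called, 0.0992% higher and 0.451% lower. The responses differed for 1 of 4, where 2.29% of all genes were called, 1.39% with the higher and 0.897% with the lower response in KO cells.

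Arrays of the 2 groups did not overlap for 2 members with paraquat in wt cells (37.6% of all genes) and for 4 in KO cells (37.2%). They did not overlap for 2 between the sham genotypes (22.7%) and for 1 between the genotypes under paraquat (17.0%). The median log2 change of the 4 members was 0.03 in wt cells and 0.47 in KO cells with paraquat, against 0.01 over all genes in each. It was -0.38 between the sham genotypes, against -0.01 over all genes, and -0.10 between the genotypes under paraquat. In limma's test for a change of at least 1.5-fold, 0 of 4 members passed in any comparison. The lowest adjusted p, 0.132, was that of Sqstm1 between the sham genotypes, and Sqstm1 alone had an unadjusted p under 0.05 there and for the difference of responses.

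**Figure D2:**
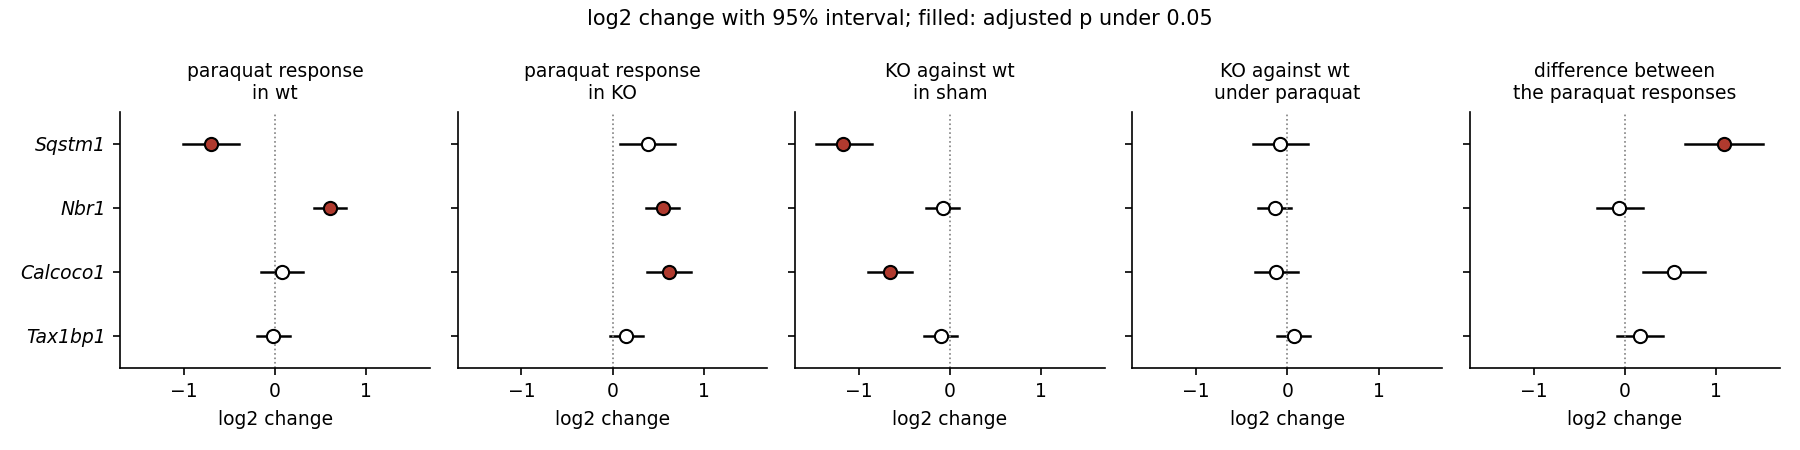
Log2 change of each receptor gene in the 5 comparisons (x axis) with the 95% interval from limma, filled where the adjusted p was under 0.05. Sqstm1 is at -0.70 for paraquat in wt cells and 0.39 in KO cells, whereas Nbr1 is at 0.60 and 0.55.

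The genes most like each member were taken by Pearson correlation of log2 signal over the 12 arrays among 10342 genes above the median signal. These arrays share the groups, so the correlations describe the pattern and carry no p. For Sqstm1 they were Wars, a cytosolic tryptophanyl-tRNA synthetase (r = 0.986), Hax1, a mitochondrial protein that protects from apoptosis (r = 0.972), and Atf5, a transcription factor of the stress response (r = 0.972). Atf5 signals averaged 819.7 ± 173 in sham-treated wt cells and 271 ± 19.0 in sham-treated KO cells. With paraquat they averaged 364 ± 40.5 in wt and 380.0 ± 25.1 in KO cells. The choice by correlation fixes the direction of their differences, which are given without a test. With paraquat in KO cells the log2 changes of Wars, Hax1 and Atf5 were 0.32, 0.37 and 0.49.

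For Nbr1 the most like genes were Atp6v1a, the catalytic A subunit of the proton pump that acidifies lysosomes (r = 0.997), Lce3e, a late cornified envelope gene (r = 0.990), and Ell, an elongation factor of RNA polymerase II (r = 0.990). The log2 change of Atp6v1a with paraquat was 0.64 ± 0.08 in wt and 0.55 ± 0.08 in KO cells. That of Lce3e was 5.64 ± 0.26 in wt and 5.46 ± 0.26 in KO cells; r compares the pattern over the arrays and not the size of a change.

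For Calcoco1 they were Mid1ip1, a regulator of fatty acid synthesis (r = 0.960), Med20, a Mediator subunit (r = 0.959), and Cnppd1 (r = 0.958). Their KO minus wt differences under sham treatment were -0.54, -0.26 and -0.64, and their log2 changes with paraquat in KO cells were 0.50, 0.25 and 0.54. That of Med20 was the smallest of the 3 in each. For Tax1bp1 the highest r was lower than for the other members, 0.876 with Ngly1, the enzyme that removes sugar chains from misfolded glycoproteins.

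**Figure D3:**
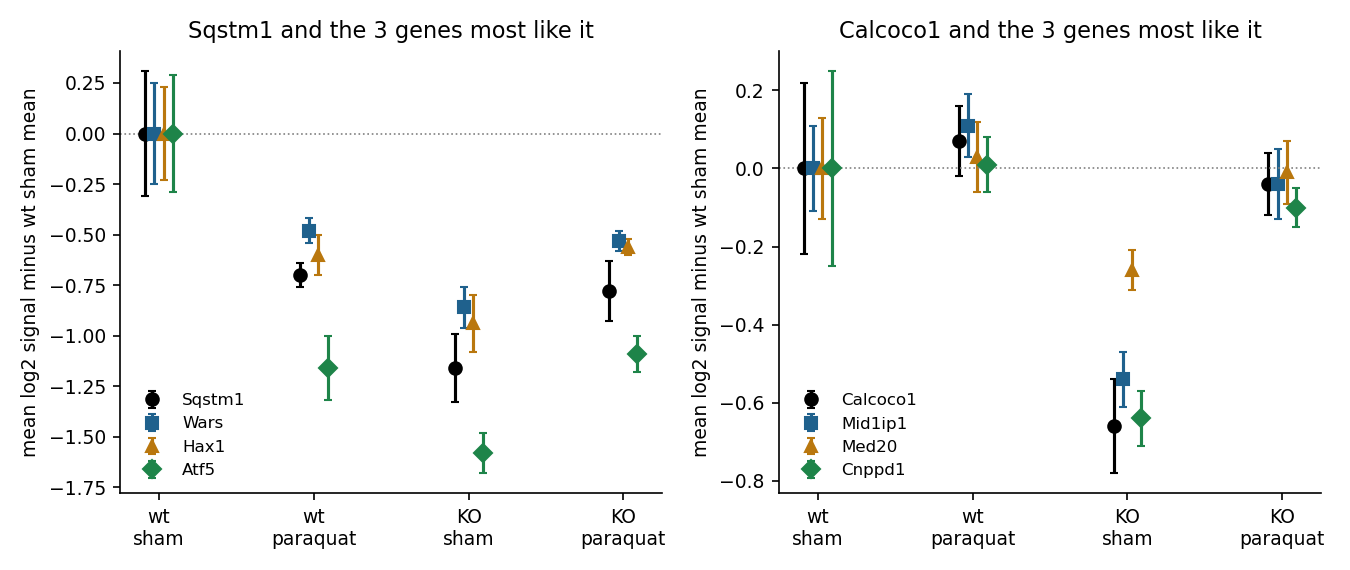
Mean log2 signal of Sqstm1 and of Calcoco1, each with the 3 genes most like it, relative to the mean of wt sham (error bars, SD of 3 arrays). All 4 genes in the left panel are highest in wt sham and lowest in KO sham, and all 4 in the right panel are lowest in KO sham.

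Genes within 1000 bases of a member were Mrnip beside Sqstm1 and Brca1 and Tmem106a beside Nbr1. Brca1, a DNA repair gene transcribed away from Nbr1, moved opposite to it with paraquat. Its signals in wt cells were 72, 42 and 60 without paraquat and 36, 38 and 40 with it, and in KO cells 95, 97 and 95 without it and 46, 46 and 47 with it. It fell in wt cells (-0.58 ± 0.14, adjusted p = 0.00781) and in KO cells (-1.05 ± 0.14, adjusted p = 1.07e-04). Its paraquat signals lay near the array medians of 42 to 45, where a fall can be understated. Brca1 was higher in KO than in wt sham cells (0.76 ± 0.14, adjusted p = 0.00482), where Nbr1 did not pass. Mrnip, 35 bases from Sqstm1, was called in no comparison, and its log2 change with paraquat in wt cells was -0.19 (adjusted p = 0.245). Tmem106a, 290 bases from Nbr1, was called in none either.

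**Figure D4:**
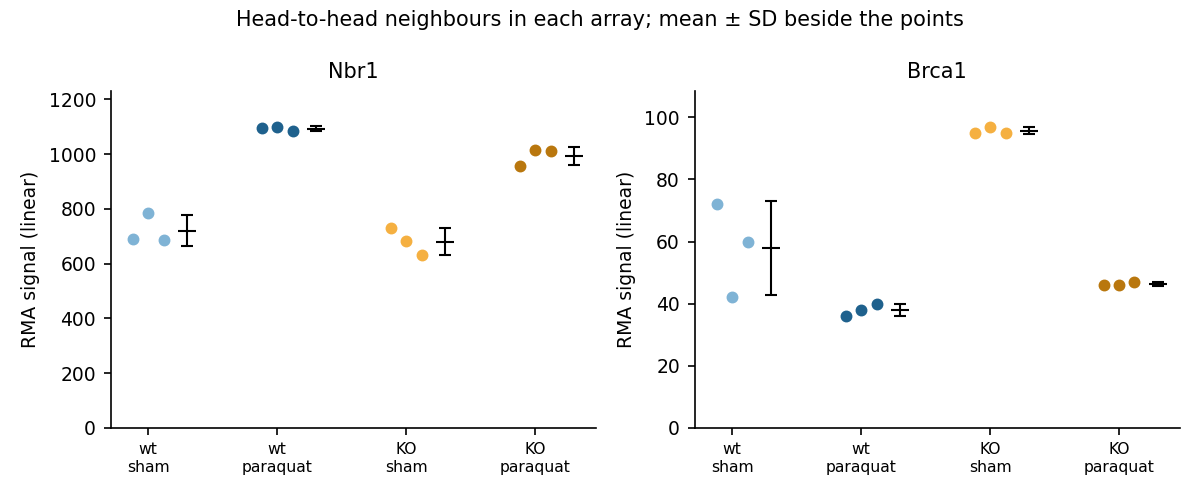
Signal of Nbr1 and of Brca1 (linear RMA scale, axes from 0) in the 12 arrays, with group mean and SD beside the points. Nbr1 is at 955 to 1100 under paraquat and 630 to 784 under sham treatment, and Brca1 is at 36 to 47 under paraquat and 42 to 97 under sham treatment.

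The partners of the receptors were described from 10 lists of 82 measured genes, whose counts stand beside called shares of all genes of 29.2% with paraquat in wt cells, 27.1% in KO cells and 10.2% between the sham genotypes. Of the 5 ATG8 genes, whose products the receptors bind, 3 rose and 1 fell with paraquat in each genotype. Map1lc3b fell in wt (-1.10 ± 0.11, adjusted p = 5.00e-06) and in KO cells (-0.68 ± 0.11, adjusted p = 3.86e-04). Gabarap rose in both (0.78 and 0.69, adjusted p = 1.13e-05 and 4.32e-05), as did Gabarapl2 (1.21 and 0.72, adjusted p = 1.16e-05 and 0.00104) and Map1lc3a. None of the 5 was called between the sham genotypes by limma, with 2 at an unadjusted p under 0.05.

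Among 12 partners and regulators of SQSTM1, 3 rose and 2 fell with paraquat in wt cells, and 2 rose and 1 fell in KO cells. The counts without wt sham 2 and KO paraquat 3 were 3 and 3 in wt cells, and 2 and 1 in KO cells. Ulk1, a kinase that starts autophagy, rose in both (0.43 and 0.60, adjusted p = 3.85e-04 and 2.87e-05). Wdfy3 (ALFY), a scaffold that works with SQSTM1 on aggregates, fell in both (-0.70 and -0.60, adjusted p = 1.03e-04 and 4.44e-04). Keap1 was not called in any comparison. Of these 12, 0 were called between the sham genotypes by limma, with 4 at an unadjusted p under 0.05, whereas without wt sham 2 and KO paraquat 3 there was 1 that fell.

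Of 10 measured partners of OPTN and TAX1BP1, 2 rose and 2 fell in wt cells. Myo6, the myosin that these receptors bind, rose in wt (0.75 ± 0.10, adjusted p = 5.41e-05) and in KO cells (0.54 ± 0.10, adjusted p = 9.98e-04). Rnf11, a partner of TAX1BP1 in the A20 ubiquitin-editing complex, rose in both (0.95 and 1.13, adjusted p = 1.76e-05 and 6.18e-06) and was lower in KO sham cells (-0.56, adjusted p = 0.00579). Tnfaip3, the gene of A20 itself, was higher in KO sham cells (0.62, adjusted p = 0.0219). Between the sham genotypes 1 of the 10 thus rose and 1 fell, and without wt sham 2 and KO paraquat 3 it was 0 and 1. Of 5 TBK1 kinase and adaptor genes, 2 rose and 1 fell in wt cells, but without wt sham 2 and KO paraquat 3 none rose there. Tbk1, the kinase that phosphorylates receptors, was higher in KO sham cells (0.34 ± 0.07, adjusted p = 0.00769). Of 6 measured ubiquitin and ligase genes, 3 fell in KO against wt sham cells and 1 did without those 2 arrays. Sharpin, a subunit of the linear ubiquitin ligase, was the first of the 3 by p (-0.54 ± 0.09, adjusted p = 0.00185).

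Of 21 other cargo receptors measured, 3 rose and 7 fell with paraquat in wt cells, with a median log2 change of -0.11. The count there without wt sham 2 and KO paraquat 3 was 3 and 6. In KO cells 4 rose and 5 fell, and without wt sham 2 and KO paraquat 3 the count was 2 and 5. Between the sham genotypes 0 rose and 5 fell in KO cells, and without those arrays 0 rose and 3 fell. Stbd1, the glycogen receptor, fell from 361 ± 125 to 66.7 ± 6.35 in wt cells (-2.39 ± 0.18, adjusted p = 4.54e-07). In KO cells its signals were 104 to 124 without paraquat and 71 to 91 with it (-0.53, adjusted p = 0.0482). Its KO minus wt difference under sham treatment was -1.62 (adjusted p = 1.87e-04), and its responses differed by 1.86 ± 0.26 (adjusted p = 0.00276). Retreg1 (FAM134B), a receptor for the endoplasmic reticulum, rose with paraquat in both genotypes (0.76 and 0.87, adjusted p = 1.59e-05 and 7.70e-06) and was lower in KO sham cells (-0.49, adjusted p = 0.00305). Atl3 and Rtn3, also receptors there, fell in both. Bnip3, a mitochondrial receptor, fell by 0.83 in wt and by 0.85 in KO cells (adjusted p = 1.54e-05 and 1.78e-05). Calcoco2 (NDP52) was not called, but its signals of 14 to 18 lay below the array medians of 42 to 45, where a response could be missed.

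**Figure D5:**
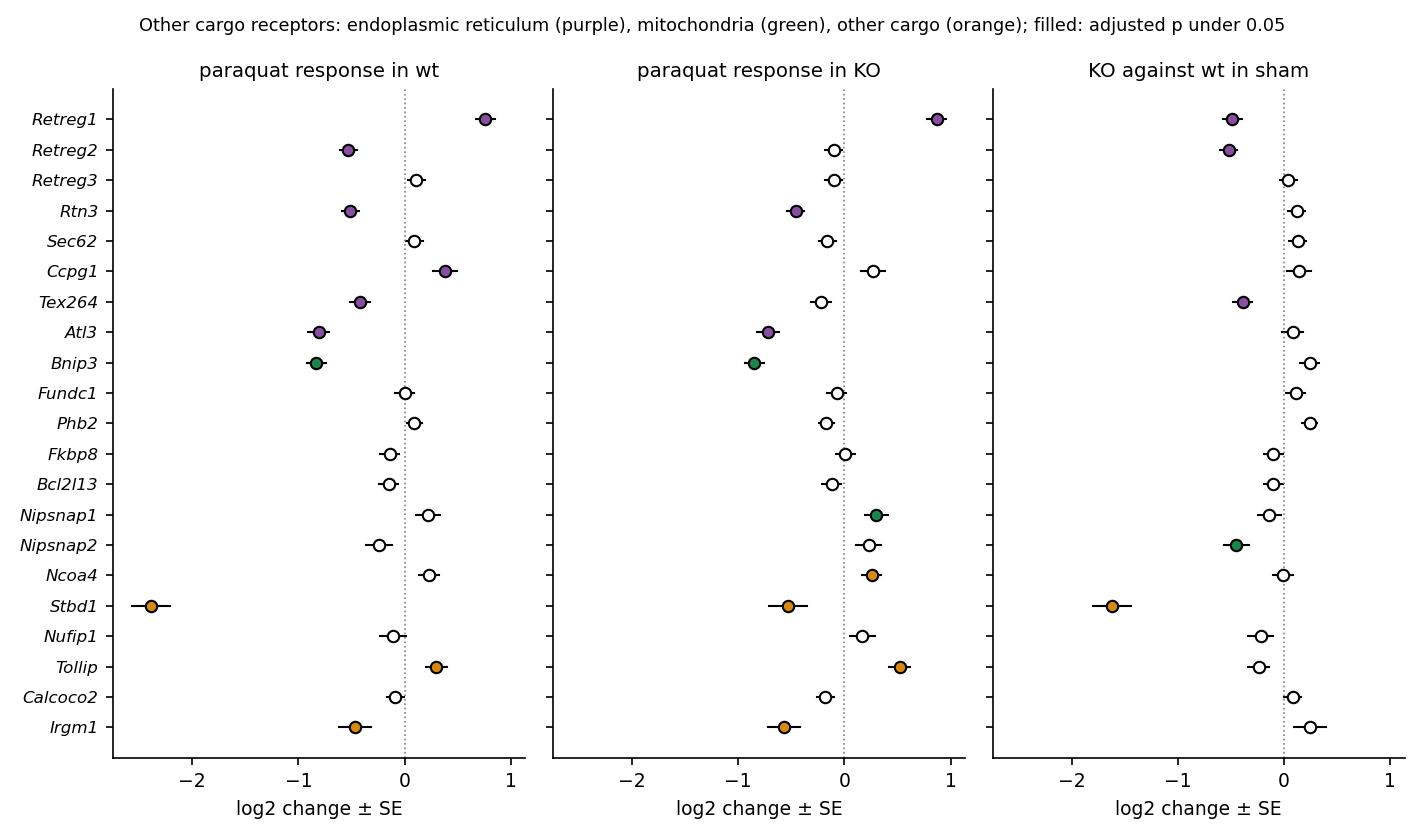
Log2 change with SE of 21 other cargo receptor genes for paraquat in wt cells, paraquat in KO cells and KO against wt under sham treatment, filled where the adjusted p was under 0.05 and coloured by cargo. Stbd1 is farthest from 0 in the wt and sham panels, at -2.39 and -1.62.

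Sqstm1 is a known target of NRF2 and of TFEB. Of 11 measured genes in the NRF2 list, 8 rose and 1 fell with paraquat in wt cells, and 9 rose and 0 fell in KO cells. Leaving out wt sham 2 and KO paraquat 3, 8 rose and 0 fell in KO cells. The log2 change of Sqstm1 was -0.70 in wt cells and 0.39 in KO cells, where it did not pass (limma adjusted p = 0.0583). The part of NRF2 or TFEB in the Sqstm1 changes was not tested. Hmox1, Nqo1, Txnrd1 and Gsta4 rose by 1.90, 1.92, 1.76 and 3.50 in wt cells. Between the sham genotypes 2 of the NRF2 list were called higher in KO cells, Gsta4 and Nqo1 (0.89 and 0.83, adjusted p = 2.56e-04 and 0.00184), where Sqstm1 was lower. The 1 called lower there was Slc7a11 (-1.35, adjusted p = 1.20e-05), as Sqstm1 was. The response of Gsta4, a glutathione transferase, was smaller in KO than in wt cells (-1.15 ± 0.15, adjusted p = 0.00181). With paraquat Slc7a11, the cystine importer, was the 1 that fell in wt cells. Its signals in wt cells were 480 to 651 without paraquat and 339 to 376 with it, and in KO cells 211 to 233 without it and 435 to 496 with it. Its fall in wt cells was -0.67 (adjusted p = 2.60e-04), its rise in KO cells 1.05 (adjusted p = 8.44e-06), and its responses differed by 1.73 ± 0.15 (adjusted p = 6.96e-05). Of 12 TFEB family and lysosomal genes, 4 rose and 1 fell with paraquat in each genotype. Flcn and Atp6v1h were among those that rose in both (0.55 and 0.43 in wt, 0.61 and 0.38 in KO cells). Hexa, a lysosomal hexosaminidase subunit, fell in both (-1.43 and -0.82, adjusted p = 7.90e-08 and 1.71e-05). Between the sham genotypes 0 rose and 3 fell in KO cells, Hexa among them (-0.78, adjusted p = 2.06e-04). Without wt sham 2 and KO paraquat 3, 0 rose and 2 fell there.

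Over the 82 genes of these lists, 51.2% were called with paraquat in wt cells, 46.3% in KO cells and 20.7% between the sham genotypes, against 29.2%, 27.1% and 10.2% of all genes. The lists were chosen with earlier results of these data known and were not matched to all genes for signal. These shares are therefore a description and not a result about the pathway. Under paraquat 0 of 82 were called between the genotypes by limma, with 18 at an unadjusted p under 0.05, where 0.550% of all genes were called.

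Markers of other cell types moved with paraquat, and their part in the receptor results was not tested. The sum of 8 melanocyte markers was 303 to 395 in wt sham and 721 to 769 in wt paraquat, and 336 to 367 in KO sham and 672 to 792 in KO paraquat, with 3 of 8 rising in each genotype. Leaving out wt sham 2 and KO paraquat 3, 4 rose in wt and 2 in KO cells. The sum of 8 leukocyte and Langerhans markers was 764 to 813 in wt sham and 2014 to 2099 in wt paraquat, and 786 to 876 in KO sham and 1421 to 1688 in KO paraquat. Of these, 6 of 8 had a group mean below the highest array median in every group. With paraquat 4 of the 8 were called higher in wt cells, and 2 higher and 1 lower in KO cells. The sum of 8 endothelial markers was 261 to 289 in wt sham and 477 to 542 in wt paraquat, and 281 to 296 in KO sham and 396 to 444 in KO paraquat. Of these 8, 3 were called higher with paraquat in wt and 2 in KO cells. The sum of 10 fibroblast markers in wt cells was 590 to 637 without paraquat and 544 to 621 with it, and in KO cells 585 to 602 without it and 521 to 537 with it. This sum holds opposite moves, with 1 of the 10 called higher and 1 lower in each genotype. Pdgfra averaged 35.0 and 98.7 in wt cells (31.3 and 58.0 in KO cells). Fbln1 averaged 249 and 157 (261 and 170.0 in KO cells). Of the 11 keratinocyte markers, 6 fell with paraquat in wt cells and 5 in KO cells, and 0 rose in either. The falls numbered 6 in wt and 4 in KO cells without wt sham 2 and KO paraquat 3. Over all genes 14.3% were called lower in wt and 12.6% in KO cells, and 14.9% and 14.5% higher. Krt1 averaged 448 in wt sham and 173 in wt paraquat (352 and 114 in KO cells), and Krt10 246 and 160.3 (214 and 127 in KO cells). In each of the melanocyte, leukocyte and endothelial sums, 1 gene made up most of the difference with paraquat. Cd68, a lysosomal protein of macrophages, averaged 587 in wt sham and 1825 in wt paraquat (650.0 and 1346 in KO cells), whereas Ptprc, the pan-leukocyte CD45, averaged 15.0 to 18.0 in the 4 groups. Mlana averaged 64.3 and 379 in wt cells (69.7 and 358 in KO cells), whereas Tyr lay at 7 to 12 on every array and Sox10 averaged 37.3 to 42.7. Tyrp1, Dct and Pmel also had higher means with paraquat. Tyrp1 averaged 60.0 and 78.7 in wt cells (55.7 and 109.7 in KO cells). Dct averaged 48.3 and 70.7 (48.7 and 71.7 in KO cells), and Pmel 51.3 and 73.7 (61.0 and 75.0 in KO cells). Kdr averaged 53.3 and 248 in wt cells (58.0 and 149 in KO cells), whereas Cdh5 averaged 30.3 to 33.0. No marker was at 0 on any array, where the lowest signal of the table was 3. Between the sham genotypes, where Sqstm1 and Calcoco1 were lower in KO cells, limma called 1 of 8 leukocyte markers higher and 1 lower, and 1 of 8 endothelial markers higher. It called 0 of 8 melanocyte, 0 of 10 fibroblast and 0 of 11 keratinocyte markers there, with 0, 3 and 3 at an unadjusted p under 0.05. Leaving out wt sham 2 and KO paraquat 3, limma called 1 leukocyte marker higher there and 0 lower.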

How the data were processed

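Total RNA of 12 cultures was amplified with a whole-transcript kit, and the biotin-labelled product was hybridised, 1 array per culture, per the labels' protocols. The deposited table holds intensity per probe set on a linear scale, given as whole numbers, and per the submitters' processing notes the authors used RMA and Affymetrix Expression Console 1.3.1.187. The values were taken to log2, although a log2 table had been foreseen.

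Of 41345 probe sets, 23521 had 1 gene symbol, 1814 several and 16010 none in the platform annotation, which can be old. For the 1082 genes with several probe sets the one of highest mean signal was kept, giving 22180 genes with no filter on signal. In R 4.3.3, limma 3.58.1 (lmFit, eBayes) fitted 1 mean per group to the 12 arrays without a block. Its moderated tests were 2-sided, with Benjamini-Hochberg adjustment over all genes and a threshold of 0.05. The code was tested on simulated data. The precision is limited by the number of arrays, 3 per group.

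The named genes were the members, Atg7, the 3 genes most correlated with each member, and up to 4 called genes per list and comparison in order of p. Genes within 1000 bases, Keap1, Calcoco2 and the GC and CCAAT boxes were added after values or sequences were seen. The members and lists were chosen with earlier results of these data known. Alternatives were other scalings, a filter on dim genes, other uses of probe sets, variance models, array weights, a test for at least 1.5-fold, fewer arrays, an offset of 16 before log2 and a replicate block.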

Additional observations from a re-analysis of the deposited data

Results flagged for a closer look

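The paraquat responses of Sqstm1 differed between the genotypes in the test of the difference itself: the KO response minus the wt response was 1.09 ± 0.20 on the log2 scale (limma adjusted p = 0.0134, 3 arrays per group). The wt arrays fell from 1818, 2751 and 2006 to 1369, 1267 and 1339, and the KO arrays were 1059, 847 and 990 under sham treatment and 1370, 1292 and 1120 under paraquat. The difference ranged from 0.91 to 1.21 when any 1 array was left out, with adjusted p from 0.00500 to 0.0411.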

How the results depend on the processing

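Among the members, 219 values kept their direction and their side of the threshold under other settings, leaving out single arrays aside. The exceptions were 3 that changed sign, 7 that passed newly and 7 that no longer passed. All 7 lost calls came from the test for at least 1.5-fold, which called 1194 genes with paraquat in wt cells, 895 in KO cells, 70 between the sham genotypes, 2 between the genotypes under paraquat and 24 for the difference of responses, with 0 members in each. The 7 new passes were Sqstm1 with paraquat in KO cells under 6 settings (adjusted p from 0.00765 to 0.0492) and Calcoco1's difference of responses with dim genes removed (adjusted p = 0.0487), where 2 members were called. Sqstm1 with paraquat in KO cells also passed without wt sham 1, wt sham 2 or KO paraquat 3 (adjusted p = 0.0411, 0.0144 and 0.0460). The changes of sign were Tax1bp1 with paraquat in wt cells (0.00 with array weights and 0.03 without wt sham 2 and KO paraquat 3) and Sqstm1 under paraquat (0.01 without those 2 arrays). With single arrays left out, the first ran from -0.06 to 0.03 and the second from -0.14 to 0.01.

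Counts over all genes moved by over 1.5 times for the following, and the causes were not tested beyond the fewer arrays or genes used. Between the sham genotypes 976 genes, not 2273, were called with only the arrays compared, and 1360 without both arrays named above (an alternative chosen after seeing the data). Under paraquat the 122 genes became 228 with dim genes removed, 53 with every probe set, 223 with a variance trend, 249 with array weights, 3 with only the arrays compared, 231 with 16 added and 44 without both arrays. For the difference of responses the 508 genes became 894, 297 and 783 under the first 3 of those settings, 882 with 16 added and 268 without both arrays. With single arrays left out these counts ran from 1418 (without wt sham 2) to 2363, from 30 (without wt paraquat 1) to 171, and from 250 (without wt paraquat 1) to 700.

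Same-numbered arrays of different groups did not deviate together (18 correlations from -0.0727 to 0.0902). The labels do not tie arrays to animals, so whether same-numbered cultures shared an animal remained unknown. A replicate block called 6250, 5805, 2014, 117 and 439 genes in the 5 comparisons and changed no call of a member; the adjusted p of Sqstm1's difference of responses was 0.0270. Each value rests on 1 probe set per gene and 3 arrays per group, and signals near the array medians, as for Brca1, may understate a change.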
